A study of Mus musculus with 6 samples.

Results

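Cyclins, cyclin-dependent kinases (CDKs) and CDK inhibitors were followed in mouse gastruloids grown with budesonide. Members were the rows of the deposited count table whose symbol belongs to the cyclin families A to L, T and Y, to the numbered Cdk genes or to the Cdkn1, Cdkn2 and Cdkn3 inhibitors. The pattern matched 50 symbols, Ccng1, Cdkn1a and Cdkn1c were left out by name, and 47 of the 53819 symbols in the table remained. The rule itself uses names alone. Gastruloids are aggregates of embryonic stem cells that imitate early steps of body axis formation, and all samples came from E14, a mouse embryonic stem cell line. The groups were 3 samples treated with budesonide, a synthetic glucocorticoid, for 80 h and 3 untreated samples. The labels give neither a dose, nor a vehicle, nor the time at which the untreated samples were collected. Whether replicates were separate cultures is not stated, so p-values reflect only how far these samples scatter, and that scatter may be technical.

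Cyclins are the regulatory subunits that switch on CDKs. D-type cyclins with Cdk4 and Cdk6, and E-type cyclins with Cdk2, phosphorylate the retinoblastoma protein family and release E2F transcription factors at the entry into S phase. A- and B-type cyclins with Cdk1 and Cdk2 carry cells through S phase and mitosis. Inhibitors of the Cip/Kip and Ink4 families hold these kinases back, and mouse embryonic stem cells are known for a short G1 phase with low inhibitor levels. Other members act on RNA polymerase II: cyclin H with Cdk7, cyclin C with Cdk8 or Cdk19 in the Mediator complex, cyclin T with Cdk9 in P-TEFb, and cyclin K with Cdk12 or Cdk13. Cyclin Y works with some of the PCTAIRE and PFTAIRE kinases Cdk14 to Cdk18, a group with roles at membranes and in WNT signalling.

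Total counts were 7476862, 6965653 and 5666168 reads in budesonide replicates 1 to 3 and 6407369, 7018327 and 6336709 in untreated replicates 1 to 3. Levels are given in CPM, counts scaled to library size with TMM factors. By total counts alone, with no TMM factor, 3 reads corresponded to 0.401 to 0.529 CPM. Member genes took 0.276 to 0.280% of the reads in budesonide libraries and 0.295 to 0.299% in untreated libraries. These are shares of total counts without TMM factors, which were 0.960 to 0.989 with budesonide and 1.02 to 1.04 without. They are therefore no measure of a change of the members on the scale used for the tests. The culture as a whole differed between the groups. Markers of naive pluripotent cells summed to 1217 to 1332 CPM with budesonide and 538 to 598 CPM in untreated libraries, and 9 of the 9 tested genes of this list were higher. Markers of primitive streak and tailbud summed to 19.7 to 23.3 CPM with budesonide and 306 to 327 CPM without, and 8 of 8 tested genes were lower. Definitive endoderm markers summed to 5.003 to 7.54 CPM against 15.4 to 25.9 CPM, with 2 of 4 lower. Fibroblast markers summed to 12.8 to 15.2 CPM against 20.3 to 22.7 CPM, with 2 of 5 lower. In DESeq2, an alternative test, 1 of 1 tested endoderm marker and 0 of 4 fibroblast markers were lower. These counts stand beside 15.2% higher and 13.5% lower among all tested genes in the main test. Neural progenitor markers summed to 55.9 to 56.8 CPM against 140 to 151 CPM, with Pax6 higher and Nes lower among 3 tested. The defining markers were at 0 in all 6 libraries for none of these lists. The part of these markers in any change of a cyclin or CDK gene was not tested, and in bulk RNA fewer cells of a type and less RNA per cell cannot be told apart.

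Of the 47 members, 44 had enough reads to be tested, and 15 of these changed with budesonide at an adjusted p under 0.05 in edgeR's quasi-likelihood test. The G1 cyclins Ccnd1, Ccnd2, Ccne1 and Ccne2 were lower, and the inhibitors Cdkn1b, Cdkn2a and Cdkn2b were higher. None of the tested A- and B-type cyclins, cyclin F or the cell cycle kinases Cdk1, Cdk2, Cdk4 and Cdk6 passed the test. Among the other members, Cdk8, Ccnj, Cdk14 and Cdk18 were lower, and Cdk17, Ccnl1, Ccnl2 and Ccnt2 were higher.

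The changed share of 34.1% among tested members stood beside 28.7% of the 17155 genes tested, of which 4917 changed. Higher members numbered 7 (15.9%), against 15.2% of all tested genes, and lower members 8 (18.2%), against 13.5%. A change of at least 1.5-fold was called in 6 members (13.6%), against 13.0% of all tested genes. Libraries of the groups did not overlap for 21 members (47.7%), against 39.6% of all tested genes. These shares are near the background, so the number of changed members is not in itself a result. The median log2 fold change was 0.06 over members and -0.02 over all tested genes, and the median size regardless of direction was 0.17 over members and 0.25 over all tested genes. Among the 21 members of the cell cycle engine and its inhibitors, 19 were tested, with 3 higher and 4 lower. Among the 26 others, 25 were tested, with 4 higher and 4 lower. The balance of directions depended on scaling: with upper quartile scaling 4 members were higher and 12 lower, and with no scaling factors 4 were higher and 14 lower. No called member reversed its direction in any of the 13 alternative settings, and 12 of the 15 calls held in each of them.

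**Figure D1:**
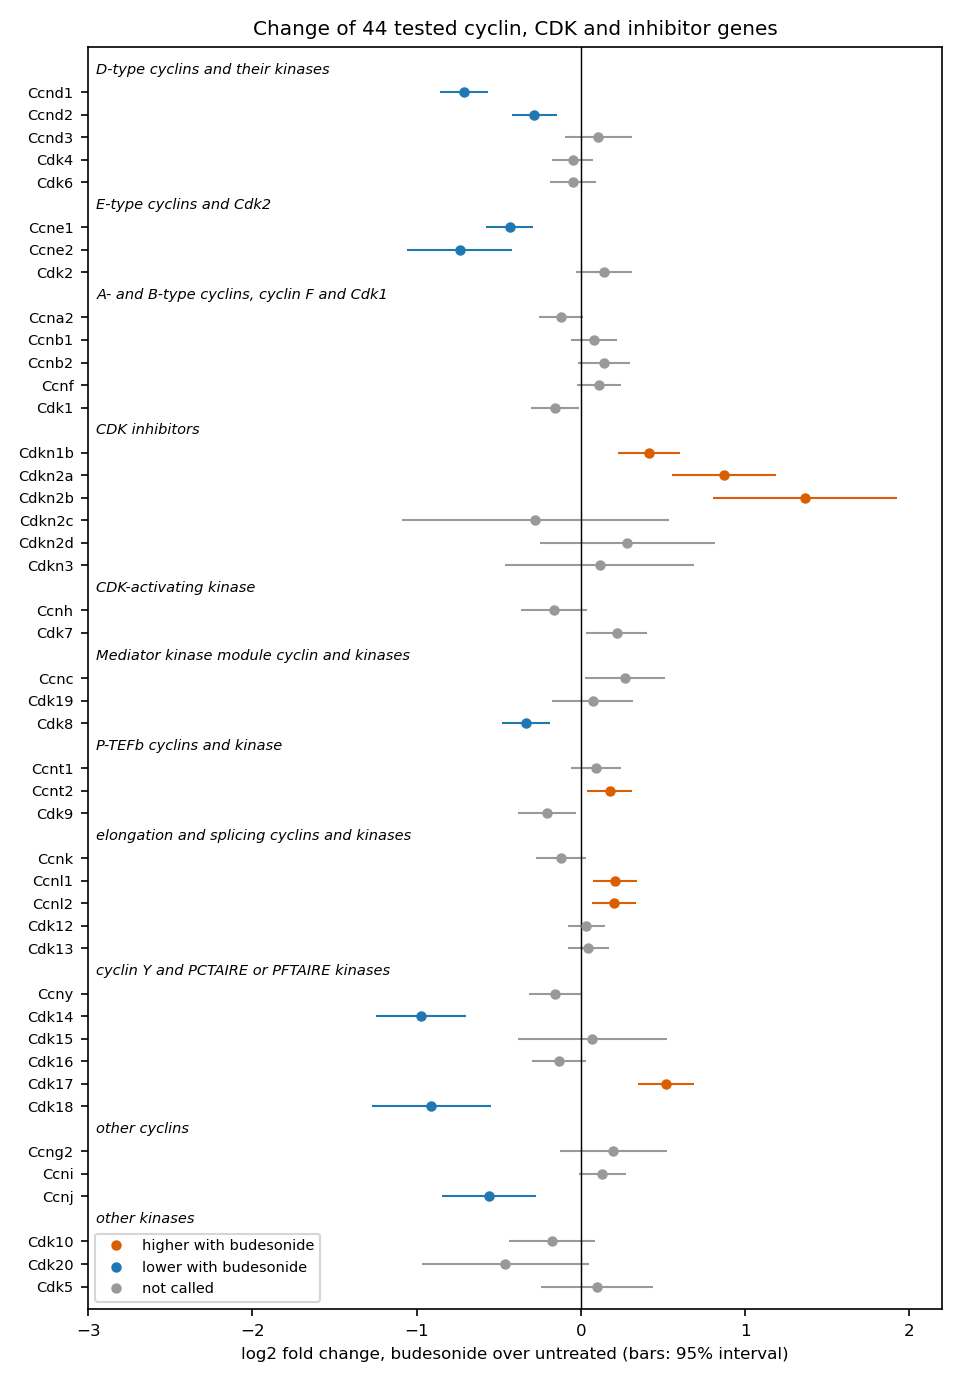
Log2 fold change of the 44 tested members, budesonide over untreated, grouped by role. Points are edgeR estimates from 3 libraries a group, bars are unadjusted 95% intervals, and colour marks the call at an adjusted p under 0.05. Called cell cycle members are the lower Ccnd1, Ccnd2, Ccne1 and Ccne2 (-0.28 to -0.74) and the higher Cdkn1b, Cdkn2a and Cdkn2b (0.42 to 1.36). No tested A- or B-type cyclin is called, but intervals overlap between Ccnd2 and Ccna2 and between Cdkn1b and Ccnb2.

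Among the D-type cyclins, which join growth signals to the cell cycle, 2 of 3 were lower, against 13.5% of all tested genes. Ccnd1 had 80.6, 71.4 and 67.3 CPM in budesonide replicates 1 to 3, against 128.7, 112.9 and 118.9 CPM in untreated replicates. Every budesonide library was below every untreated library. The means of 73.1 ± 6.81 and 120.2 ± 7.95 CPM (SD, n = 3 each) gave a log2 fold change of -0.71 ± 0.07 (SE; adjusted p = 5.53e-11, edgeR), 1.64-fold lower with budesonide. Ccnd2 had 85.5, 85.9 and 80.2 CPM with budesonide, against 105.9, 101.5 and 99.0 CPM without. Again the groups did not overlap, and the log2 fold change was -0.28 ± 0.07 (SE; adjusted p = 0.00115, edgeR), 1.22-fold lower. Ccnd3, the remaining D-type cyclin, had 33.5, 36.3 and 39.0 CPM with budesonide and 37.5, 32.8 and 30.5 CPM in untreated libraries. The ranges overlapped, and its log2 fold change of 0.11 ± 0.10 (SE; adjusted p = 0.486, edgeR) had a 95% interval of -0.10 to 0.31, which leaves out a fall of the size seen for Ccnd1 or for Ccnd2.

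The partner kinases did not pass the test. Cdk4, the main D-cyclin kinase by level, had 202.7, 205.9 and 196.5 CPM with budesonide, against 188.0, 213.4 and 224.7 CPM without. Cdk6, its close relative, had 103.6, 91.7 and 91.7 CPM with budesonide, against 101.7, 96.3 and 99.3 CPM. For both the groups overlapped, with log2 fold changes of -0.05 for each and 95% intervals of -0.17 to 0.08 for Cdk4 and -0.19 to 0.09 for Cdk6.

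Per kilobase of transcript the D-type cyclins together stood at 50.9, 49.9 and 49.1 CPM per kb with budesonide and at 68.9, 61.7 and 61.9 CPM per kb in untreated libraries. Ccnd1 made up 42.3, 38.3 and 36.6% of that sum with budesonide, against 49.9, 48.9 and 51.4% in untreated libraries. Ccnd3 made up 31.2, 34.5 and 37.6% with budesonide, against 25.8, 25.1 and 23.3%. Neither share overlapped between groups, while the share of Ccnd2 did, at 26.5 ± 0.719% with budesonide and 25.2 ± 0.845% without (SD, n = 3 each). Shares of a sum are tied to each other, so the larger share of Ccnd3 comes with the lower Ccnd1 and Ccnd2 and is not a call for Ccnd3 itself. Cdk4 made up 92.2 ± 0.504% of the Cdk4 and Cdk6 sum with budesonide and 92.2 ± 0.823% without.

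Both E-type cyclins, the activators of Cdk2 at the start of S phase, were lower, against 13.5% of all tested genes. Ccne1 had 73.4, 72.1 and 79.4 CPM with budesonide, against 104.7, 102.2 and 95.8 CPM in untreated libraries. There was no overlap, and the log2 fold change was -0.43 ± 0.07 (SE; adjusted p = 3.29e-06, edgeR), 1.35-fold lower. Ccne2 was lower in counts, with 10.99, 8.09 and 9.01 CPM under budesonide and 13.7, 16.3 and 17.0 CPM without. Its groups did not overlap either, and its log2 fold change was -0.74 ± 0.16 (SE; adjusted p = 0.000261, edgeR), 1.67-fold lower. Ccne1 carried most of the E-type level per kilobase, 92.3 ± 1.199% with budesonide and 90.6 ± 1.27% without (SD, n = 3 each), and the sum was 40.4, 38.7 and 42.7 CPM per kb against 56.9, 56.5 and 53.6 CPM per kb. Cdk2, their kinase, had 55.9, 50.03 and 59.0 CPM with budesonide, against 50.6, 47.2 and 51.2 CPM. These ranges overlapped, with a log2 fold change of 0.14 ± 0.08 (SE; adjusted p = 0.219, edgeR).

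Of the 5 tested members of the A- and B-type group, 0 passed the test in edgeR, against 28.7% of all tested genes. DESeq2 also called 0 of them, and 1, Cdk1, had an unadjusted p under 0.05 in edgeR. Ccna2, the S phase and G2 cyclin of proliferating cells, had 128.8, 122.1 and 132.6 CPM with budesonide, against 125.6, 141.4 and 149.4 CPM. The groups overlapped, with a log2 fold change of -0.12 and a 95% interval of -0.25 to 0.01. Ccnb1, the mitotic cyclin that partners Cdk1, had 97.1, 90.7 and 90.5 CPM with budesonide and 89.9, 82.3 and 91.6 CPM without. It too overlapped, and its log2 fold change of 0.08 had an interval of -0.06 to 0.22. Ccnb2, a second mitotic cyclin, had 61.4, 58.3 and 61.8 CPM with budesonide, against 53.0, 55.3 and 56.1 CPM. Its libraries did not overlap, yet the log2 fold change of 0.14 ± 0.08 (SE; adjusted p = 0.190, edgeR) missed the threshold. Ccnf, the substrate-binding subunit of an SCF ubiquitin ligase and no CDK activator, had 202.2, 178.1 and 223.7 CPM with budesonide and 195.6, 175.3 and 186.3 CPM without. Its groups overlapped, and it passed the test only when budesonide replicate 2 was left out (adjusted p = 0.0104, edgeR).

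Cdk1, the mitotic kinase, had 82.8, 81.8 and 71.5 CPM with budesonide, against 90.7, 90.3 and 83.1 CPM in untreated libraries. The libraries did not overlap, but the log2 fold change of -0.16 ± 0.07 (SE) had an adjusted p of 0.104 in edgeR. Cdk1 passed as lower under upper quartile scaling (adjusted p = 0.0212) and in the fit without scaling factors (0.00997), and so did Ccna2 (0.0341 and 0.0138), which also passed without untreated replicate 1 (0.0486). The germline cyclins Ccna1 and Ccnb3 had too few reads for the test: Ccna1 averaged 1.29 ± 0.421 CPM with budesonide and 1.04 ± 0.492 CPM without, and Ccnb3 0.932 ± 0.093 and 1.26 ± 0.237 CPM (SD, n = 3 each). Ccnb1 and Ccnb2 gave about equal parts of their joint level per kilobase, with Ccnb1 at 48.4 ± 1.00% under budesonide and 49.5 ± 1.64% without.

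Of the 6 inhibitor genes, 3 rose with budesonide and 0 fell in edgeR, at an adjusted as at an unadjusted p under 0.05. In DESeq2, which tested 5 of them, 3 rose and 0 fell. Among all tested genes 15.2% were higher and 13.5% lower at the adjusted threshold in edgeR. Cdkn1b, which encodes the Cip/Kip inhibitor p27Kip1, had 45.5, 42.2 and 47.4 CPM with budesonide, against 35.2, 33.5 and 32.4 CPM. The groups did not overlap, and the log2 fold change was 0.42 ± 0.09 (SE; adjusted p = 0.000426, edgeR), 1.33-fold higher. Cdkn2a, whose alternative first exons give the Ink4 inhibitor p16Ink4a and the Mdm2 antagonist p19Arf, had 14.7, 18.1 and 15.6 CPM with budesonide, against 8.54, 8.01 and 9.90 CPM. All budesonide libraries were above all untreated ones, with a log2 fold change of 0.87 ± 0.16 (SE; adjusted p = 1.81e-05, edgeR), 1.83-fold higher. Counts were summed per gene, so the p16Ink4a and p19Arf transcripts cannot be told apart.

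Cdkn2b, the neighbouring Ink4 gene that encodes p15Ink4b, had the largest fold change of the tested members in the main fit but few reads. It had 47, 31 and 41 reads in the budesonide libraries and 17, 19 and 12 in the untreated ones, or 6.62, 4.56 and 7.54 CPM against 2.59, 2.67 and 1.89 CPM. The groups did not overlap, and the log2 fold change was 1.36 ± 0.28 (SE; adjusted p = 0.000121, edgeR; 95% interval 0.80 to 1.92), 2.57-fold higher.

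The other inhibitors were low and uncertain. Cdkn2c, an Ink4 inhibitor, had 1.41, 1.62 and 1.84 CPM with budesonide and 2.44, 1.41 and 2.04 CPM without, and its log2 fold change was -0.28 ± 0.40 (SE). Cdkn2d, a further Ink4 gene, had 3.804, 4.27 and 6.62 CPM against 3.81, 4.36 and 3.61 CPM, with a log2 fold change of 0.28 ± 0.26 (SE). Cdkn3, a phosphatase that acts on Cdk2 and Cdk1, had 3.38, 4.12 and 3.49 CPM against 3.51, 3.94 and 2.67 CPM, with a log2 fold change of 0.12 ± 0.29 (SE). All 3 overlapped between groups, with adjusted p-values of 0.668, 0.473 and 0.814 in edgeR. At SEs of this size a change of the size of Cdkn1b was not detectable in them.

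**Figure D2:**
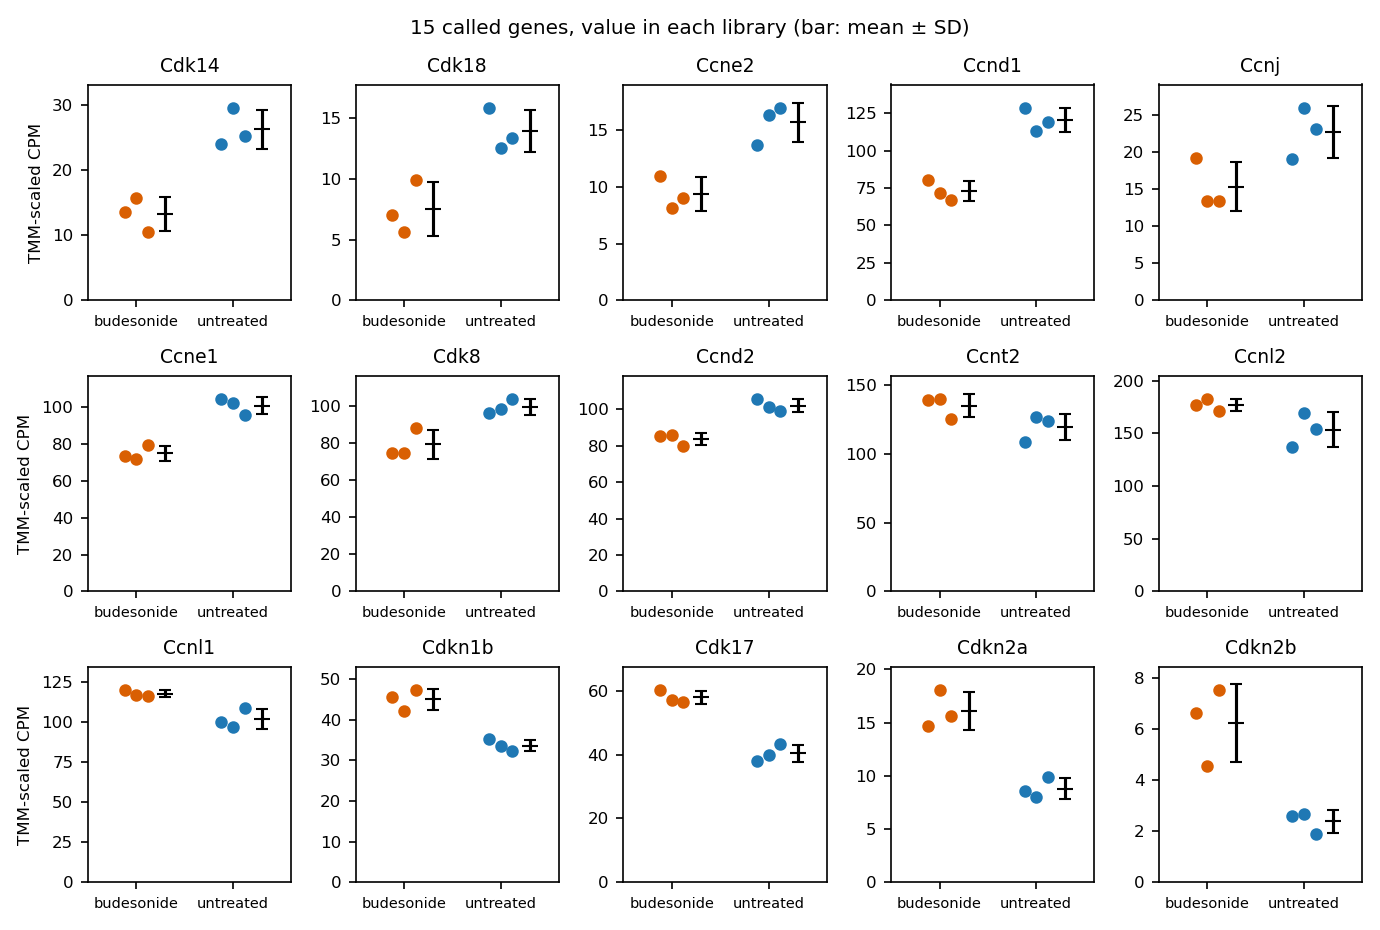
TMM-scaled CPM of the 15 changed members in each library, budesonide left and untreated right, with mean ± SD of 3 libraries beside the points. Linear axes start at 0. Groups overlap only for Ccnj and Ccnt2 among these 15, and Cdkn2a and Cdkn2b show the largest fold differences between means among the higher genes.

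Promoter sequence is shown for Ccne1 as a lower G1 cyclin, for the inhibitor locus of Cdkn2a and Cdkn2b, and for Cdk1 as a gene whose promoter holds known cell cycle elements. RefSeq's table for GRCm38.p6, an older build than the GRCm39 of the counts, holds 41 promoters of 37 members. Each line is the 250 bases before a transcription start, 5′ to 3′ on the gene's strand, with motif matches in capitals.
Ccne1 promoter, chr7:38107491-38107740 (minus strand, GRCm38.p6): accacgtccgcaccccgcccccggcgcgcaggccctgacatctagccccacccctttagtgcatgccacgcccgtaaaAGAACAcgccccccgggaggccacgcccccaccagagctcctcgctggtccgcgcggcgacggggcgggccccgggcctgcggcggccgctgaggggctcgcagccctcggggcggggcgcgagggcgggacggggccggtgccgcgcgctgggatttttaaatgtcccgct
Cdkn2a promoter, chr4:89282193-89282442 (minus strand, GRCm38.p6): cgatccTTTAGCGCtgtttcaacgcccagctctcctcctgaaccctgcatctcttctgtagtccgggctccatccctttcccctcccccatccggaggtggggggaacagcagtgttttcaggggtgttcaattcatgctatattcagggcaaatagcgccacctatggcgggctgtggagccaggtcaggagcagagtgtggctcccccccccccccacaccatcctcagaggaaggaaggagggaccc
Cdkn2a promoter, chr4:89294620-89294869 (minus strand, GRCm38.p6): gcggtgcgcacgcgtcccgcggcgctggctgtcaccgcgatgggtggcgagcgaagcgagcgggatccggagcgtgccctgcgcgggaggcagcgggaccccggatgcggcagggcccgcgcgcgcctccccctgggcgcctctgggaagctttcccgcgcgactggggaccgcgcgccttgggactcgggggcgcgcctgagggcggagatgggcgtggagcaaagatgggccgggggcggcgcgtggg
Cdkn2b promoter, chr4:89311033-89311282 (minus strand, GRCm38.p6): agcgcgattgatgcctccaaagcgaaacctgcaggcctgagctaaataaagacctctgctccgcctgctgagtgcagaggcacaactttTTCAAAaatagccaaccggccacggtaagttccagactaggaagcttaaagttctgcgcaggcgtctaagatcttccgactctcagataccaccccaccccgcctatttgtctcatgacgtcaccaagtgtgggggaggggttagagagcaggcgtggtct
Cdk1 promoter, chr10:69352913-69353162 (minus strand, GRCm38.p6): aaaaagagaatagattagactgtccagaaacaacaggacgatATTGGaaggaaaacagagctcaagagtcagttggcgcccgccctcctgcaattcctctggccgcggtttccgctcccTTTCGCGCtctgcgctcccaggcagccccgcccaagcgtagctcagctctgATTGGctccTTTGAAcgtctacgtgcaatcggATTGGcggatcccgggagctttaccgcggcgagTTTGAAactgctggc
Cdkn2a has its starts 12427 bases apart, and the upper of them lies 16413 bases from that of Cdkn2b. As background, the upstream Cdkn2a start gives p19Arf and the downstream one p16Ink4a. The motifs searched on both strands were TTTNGCGC for E2F, TTTGAA for the cell cycle homology region bound by DREAM and B-Myb complexes, CCAAT for NF-Y, and AGAACA, one arm of a glucocorticoid receptor element. Capitals read in reverse where the match lies on the opposite strand. The E2F letters occurred in 2 of the 41 member promoters, those of Cdk1 and of the lower Cdkn2a start, against 1.13% of all 32851 promoters. TTTGAA occurred in 7 of the 41, those of Ccnb2, Ccnf, Ccni, Cdk1, Cdk16, Cdkn2b and Cdkn3, against 15.99% of all. CCAAT occurred in 19 of the 41, against 33.8% of all. AGAACA occurred in 7 of the 41, against 16.1% of all promoters. These were 2 of 12 promoters of changed genes (Ccne1 and Ccnl2). The others were 5 of 27 promoters of genes not called (Ccni, Cdk10, Cdk16, Cdk6 and Cdkn2c). Only 11 changed members had a promoter here, and Ccnd1, Ccnd2, Ccne2 and Cdk17 had none to search. These matches are descriptions of the letters and show no binding.

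Among the transcriptional cyclins and kinases, Cdk8 of the Mediator kinase module was lower. Cdk8 averaged 79.3 ± 7.88 CPM with budesonide and 99.4 ± 4.11 CPM without (SD, n = 3 each). Its libraries did not overlap, and its log2 fold change was -0.33 ± 0.07 (SE; adjusted p = 0.000340, edgeR), 1.26-fold lower. Its paralog Cdk19 averaged 21.9 ± 2.47 CPM with budesonide and 20.9 ± 1.53 CPM without and was not called, at a log2 fold change of 0.07. The Cdk8 share of the joint level per kilobase was 87.5 ± 1.95% with budesonide and 90.3 ± 0.987% without. Ccnc, the cyclin shared by both, averaged 23.6 ± 1.51 CPM against 19.5 ± 1.17 CPM and missed the threshold (log2 fold change 0.27 ± 0.12 SE, adjusted p = 0.0904, edgeR).

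Cyclin L and cyclin T2 were slightly higher. Ccnl1 and Ccnl2, cyclins of splicing speckles that partner Cdk11, averaged 117.6 ± 2.27 and 176.8 ± 5.98 CPM with budesonide, against 102.0 ± 6.29 and 153.5 ± 16.3 CPM without (SD, n = 3 each). Both were 1.15-fold higher, with log2 fold changes of 0.21 ± 0.07 and 0.20 ± 0.07 (SE; adjusted p = 0.0153 and 0.0154, edgeR). Ccnt2, a cyclin of P-TEFb, averaged 134.9 ± 8.39 CPM with budesonide and 119.5 ± 9.59 CPM without, 1.13-fold higher with overlapping libraries (adjusted p = 0.0438, edgeR). All 3 calls were lost under upper quartile scaling, in the fit without scaling factors and in the one without a filter on low counts, and that of Ccnt2 also in DESeq2 (adjusted p = 0.0776). They were also lost without single libraries: untreated 2 or budesonide 1 for Ccnl1, untreated 1 for Ccnl2, and untreated 1, budesonide 1 or budesonide 2 for Ccnt2. Adjusted p-values over the alternatives ran to 0.130 for Ccnl1, 0.139 for Ccnl2 and 0.275 for Ccnt2.

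The P-TEFb kinase Cdk9 averaged 45.5 ± 4.41 CPM with budesonide and 52.4 ± 2.74 CPM without, with an adjusted p of 0.0770 in edgeR. It passed as lower without budesonide replicate 1 (0.0389), under upper quartile scaling (0.0173) and in the fit without scaling factors (0.00942). Ccnt1, the other cyclin T, averaged 75.9 ± 4.01 and 71.2 ± 3.65 CPM and was not called. The CDK-activating kinase Cdk7 averaged 44.8 ± 3.22 CPM with budesonide and 38.6 ± 3.30 CPM without (adjusted p = 0.0754, edgeR), and passed as higher without untreated replicate 1 (0.0324) or budesonide replicate 2 (0.0413). Its partner Ccnh averaged 30.4 ± 0.746 and 33.9 ± 0.791 CPM and was not called. The elongation kinases were not called either: Cdk12 averaged 311.7 ± 8.71 and 304.4 ± 14.7 CPM, and Cdk13 146.2 ± 1.84 and 141.8 ± 4.35 CPM, with budesonide and without. Their cyclin Ccnk averaged 65.8 ± 1.76 and 71.5 ± 5.09 CPM in the same order and passed as lower with no scaling factors alone (0.0370).

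Of the 5 PCTAIRE and PFTAIRE kinases Cdk14 to Cdk18, 2 were lower, 1 was higher and 2 were not called. Over all tested genes 13.5% were lower and 15.2% higher. Cdk14, a kinase that with cyclin Y phosphorylates the WNT co-receptor Lrp6, had 13.5, 15.7 and 10.5 CPM with budesonide, against 23.9, 29.5 and 25.1 CPM. No libraries overlapped, and the log2 fold change was -0.97 ± 0.14 (SE; adjusted p = 1.40e-07, edgeR), 1.96-fold lower. Cdk18, a PCTAIRE kinase, had 7.04, 5.59 and 9.93 CPM with budesonide, against 15.9, 12.5 and 13.4 CPM. It likewise did not overlap, with a log2 fold change of -0.91 ± 0.18 (SE; adjusted p = 8.02e-05, edgeR), 1.88-fold lower. Cdk17, another PCTAIRE kinase, averaged 57.9 ± 2.10 CPM with budesonide and 40.5 ± 2.67 CPM without, without overlap (log2 fold change 0.52 ± 0.09 SE, adjusted p = 3.88e-06, edgeR), 1.43-fold higher.

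Their relatives were not called. Cdk16 averaged 60.5 ± 4.41 CPM with budesonide and 65.9 ± 6.06 CPM without, and passed as lower with no scaling factors (adjusted p = 0.0409). Cdk15 averaged 5.9998 ± 0.570 and 5.65 ± 1.202 CPM. Ccny, the cyclin of some of these kinases, averaged 52.8 ± 0.446 CPM with budesonide and 58.9 ± 0.977 CPM without. Its libraries did not overlap, but the adjusted p was 0.142 in edgeR. It passed as lower under upper quartile scaling (0.0370) and without scaling factors (0.0177). Summed per kilobase, Cdk14 to Cdk18 stood at 41.7 ± 1.47 CPM per kb with budesonide and 42.3 ± 2.51 CPM per kb without (SD, n = 3 each). Within that sum Cdk17 held 38.5 ± 1.82% with budesonide and 26.5 ± 2.49% without, Cdk14 held 6.22 ± 1.45% against 12.01 ± 0.645%, and Cdk18 held 4.12 ± 1.08% against 7.59 ± 1.29%. Cdk16, at 44.4 ± 1.74% and 47.6 ± 1.89%, had the largest share in both groups.

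**Figure D3:**
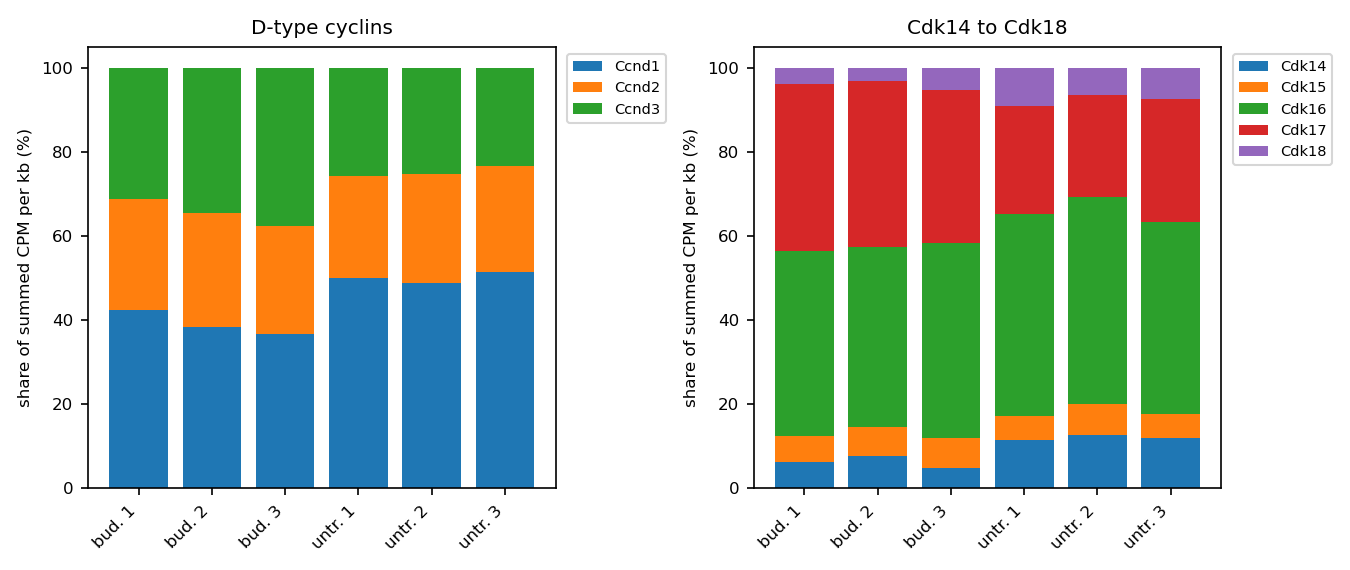
Share of the summed CPM per kb of the D-type cyclins (left) and of Cdk14 to Cdk18 (right) in each library, budesonide replicates first. Bars are stacked to 100% and no test was made. Ccnd1 takes 36.6 to 42.3% with budesonide and 48.9 to 51.4% without, and Cdk17 takes a larger part in every budesonide library than in any untreated one.

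Among the remaining members, Ccnj, a cyclin with no settled role in the mouse, had 19.2, 13.4 and 13.4 CPM with budesonide and 19.1, 26.0 and 23.1 CPM without. Budesonide replicate 1 lay at the level of untreated replicate 1, and the log2 fold change was -0.56 ± 0.14 (SE; adjusted p = 0.00171, edgeR), 1.47-fold lower. Ccng2, a cyclin linked to cell cycle arrest, averaged 12.1 ± 1.13 CPM with budesonide and 10.6 ± 1.52 CPM without, and Ccni averaged 86.0 ± 0.951 and 78.4 ± 3.77 CPM. Cdk5, known from neurons, averaged 10.7 ± 0.21 and 10.1 ± 1.597 CPM, and Cdk10 averaged 17.1 ± 0.914 and 19.3 ± 1.96 CPM. Cdk20 averaged 3.88 ± 0.895 CPM with budesonide and 5.34 ± 0.158 CPM without, at a log2 fold change of -0.46 ± 0.25 (SE; adjusted p = 0.182, edgeR). None of these 5 was called, and Cdk3, at 1.29 ± 0.0287 and 1.497 ± 0.109 CPM, had too few reads for the test.

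Levels can be set against each other only per length of transcript, which was known for 46 members. Cdk4 was highest in both groups, at 98.3 ± 2.32 CPM per kb with budesonide and 101.7 ± 9.16 CPM per kb without. Ccne1 ranked 8 of 46 with budesonide, at 37.5 ± 1.95 CPM per kb, and 4 of 46 in untreated libraries, at 50.5 ± 2.29 CPM per kb. Ccnd1 stood at 19.5 ± 1.82 CPM per kb with budesonide and 32.1 ± 2.13 CPM per kb without. Cdkn2a, at 18.02 ± 1.99 and 9.85 ± 1.09 CPM per kb, came close to Ccnd1 under budesonide, where their SDs overlapped, and stood well below it in untreated libraries. Ccnb3 was lowest, at 0.205 and 0.276 CPM per kb.

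**Figure D4:**
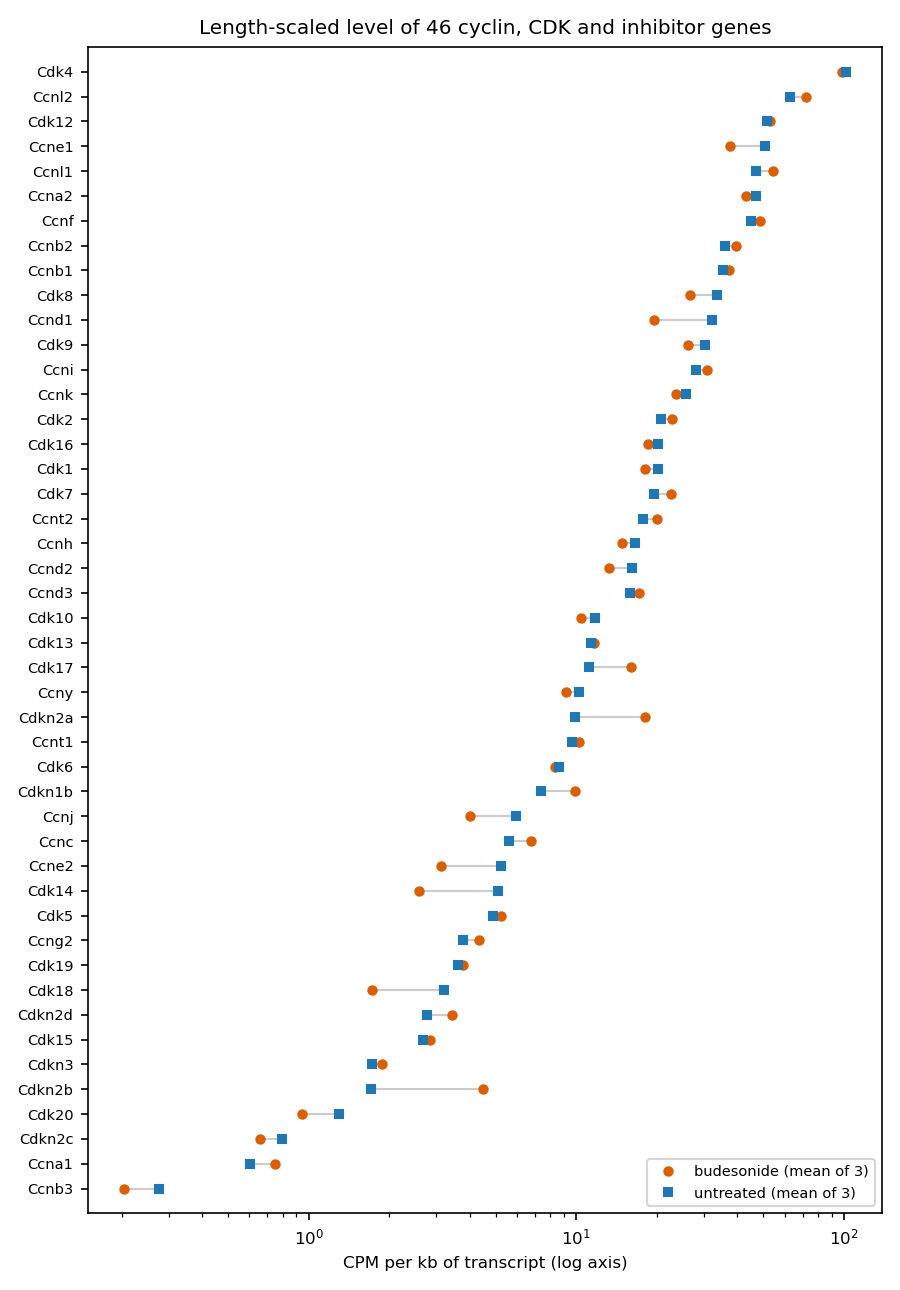
Mean CPM per kb of transcript (log axis) of 46 members, ordered by the untreated level, with 3 libraries a group. Circles are budesonide and squares untreated, joined by a line. Long lines mark Cdkn2b, Cdkn2a, Cdk14, Cdk18, Ccne2 and Ccnd1, while Cdk4 and Cdk12 lie near the top with little distance between groups.

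The partners of these genes were read from 7 lists, whose counts stand beside 15.2% higher and 13.5% lower among all tested genes. In the Rb, E2F and DREAM list, which holds the substrates and transcription factors downstream of the G1 kinases, 5 of 19 were higher and 4 lower, with a median log2 fold change of 0.06 beside -0.02 over all tested genes. The lower count was 7 under upper quartile scaling and also without scaling factors. Mybl2, the B-Myb activator of G2 and mitotic genes, averaged 587.7 ± 51.8 CPM with budesonide and 286.5 ± 9.60 CPM without (SD, n = 3 each; log2 fold change 1.04 ± 0.06 SE, adjusted p = 3.82e-19, edgeR). Rb1, the retinoblastoma gene itself, averaged 30.6 ± 4.73 CPM against 17.7 ± 1.63 CPM (log2 fold change 0.80 ± 0.12 SE, adjusted p = 9.59e-07, edgeR). The repressor E2f7 averaged 58.7 ± 1.94 CPM against 83.8 ± 3.08 CPM and the E2F partner Tfdp1 120.9 ± 2.27 CPM against 149.7 ± 18.5 CPM, both lower (adjusted p = 3.05e-07 and 0.000521, edgeR).

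Of 10 genes that control CDK phosphorylation, 2 were higher and 2 lower, against 15.2% and 13.5% of all tested genes. The activating phosphatase Cdc25a averaged 75.8 ± 3.35 CPM with budesonide and 98.5 ± 4.53 CPM without (log2 fold change -0.38, adjusted p = 2.94e-05, edgeR). Wee1, the kinase that opposes it, averaged 55.9 ± 1.11 CPM against 45.4 ± 3.02 CPM (log2 fold change 0.30, adjusted p = 0.00508, edgeR). Mnat1, the assembly factor of the CDK-activating kinase, was higher at 42.1 ± 4.16 CPM against 32.8 ± 3.17 CPM, and the phosphatase Cdc14b was lower at 28.5 ± 1.68 CPM against 40.7 ± 1.17 CPM. The list's median log2 fold change was 0.10.

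Of 21 genes that degrade cyclins and inhibitors, 1 was higher and 3 lower, with a median of 0.05, against 15.2% and 13.5% of all tested genes. Cdc20, the mitotic activator of the anaphase-promoting complex, averaged 90.2 ± 1.89 CPM with budesonide and 107.1 ± 2.09 CPM without (log2 fold change -0.25, adjusted p = 0.00326, edgeR). Cul1, the SCF scaffold, averaged 110.4 ± 5.14 CPM against 127.8 ± 3.97 CPM, and Fbxw7, the SCF subunit that recognises cyclin E, 110.5 ± 2.28 CPM against 97.0 ± 2.24 CPM. The call of Cul1 was lost in DESeq2 and without untreated replicate 3 or budesonide replicate 3 (adjusted p up to 0.0868). That of Fbxw7 was lost in DESeq2, under upper quartile scaling, without scaling factors or filter, and on leaving out budesonide replicate 1 or 3 or untreated replicate 2 (up to 0.216).

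Of 14 mitotic kinases, checkpoint genes and proliferation markers, 4 were lower and 0 higher in edgeR, against 13.5% and 15.2% of all tested genes. The median was -0.15, and 7 were lower and 0 higher at an unadjusted p under 0.05. DESeq2 called 2 lower and 0 higher, and the lower count was 7 with upper quartile scaling and 8 with no scaling factors. Mki67, a marker of cycling cells, averaged 571.6 ± 8.65 CPM with budesonide and 687.7 ± 19.2 CPM without (log2 fold change -0.27 ± 0.05 SE, adjusted p = 7.09e-05, edgeR). Plk1, a mitotic kinase, averaged 63.9 ± 3.41 CPM against 80.1 ± 4.40 CPM (log2 fold change -0.33 ± 0.08 SE, adjusted p = 0.000596, edgeR).

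Of 13 partners of the Mediator kinase module and P-TEFb, 6 were higher and 4 lower, against 15.2% and 13.5% of all tested genes, with a median of 0.29. Hexim1, the inhibitor of P-TEFb, averaged 144.8 ± 8.40 CPM with budesonide and 93.5 ± 7.11 CPM without (log2 fold change 0.63 ± 0.07 SE, adjusted p = 2.62e-10, edgeR). Aff4, the scaffold of the super elongation complex, averaged 532.4 ± 17.9 CPM against 381.2 ± 11.2 CPM and was higher. Med12, the activator of Cdk8, averaged 87.6 ± 0.858 CPM against 112.6 ± 7.27 CPM, and Larp7, which stabilises the RNA that holds P-TEFb inactive, 123.6 ± 2.81 CPM against 146.1 ± 0.194 CPM. Both were lower (adjusted p = 3.98e-05 and 0.00227, edgeR).

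A list of Cdk5 activators, Cdk5rap and Cdk2ap genes and the cyclin Y relative Ccnyl1 held 8 genes. Of these, 3 were higher and 1 lower, against 15.2% and 13.5% of all tested genes, with a median of 0.14. The higher call of Ccnyl1, named after its values were seen, was lost in 10 of 13 alternatives (adjusted p = 0.0486 in edgeR, up to 0.229). Cdk5r2, a neuronal activator of Cdk5, averaged 6.05 ± 0.513 CPM with budesonide and 2.60 ± 0.390 CPM without (log2 fold change 1.21 ± 0.26 SE, adjusted p = 0.000304, edgeR). Cdk5rap3 was higher at 53.9 ± 3.02 CPM against 43.3 ± 3.95 CPM. Cdk2ap1, named for its binding to Cdk2, was lower at 34.7 ± 4.03 CPM against 51.8 ± 2.64 CPM. Of 11 tested CDK-like and cyclin-like genes outside the naming rule, 1 was higher, Cdkl2, which averaged 13.0 ± 0.455 CPM with budesonide and 6.55 ± 2.72 CPM without (log2 fold change 0.98 ± 0.20 SE, adjusted p = 0.000105, edgeR).

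**Figure D5:**
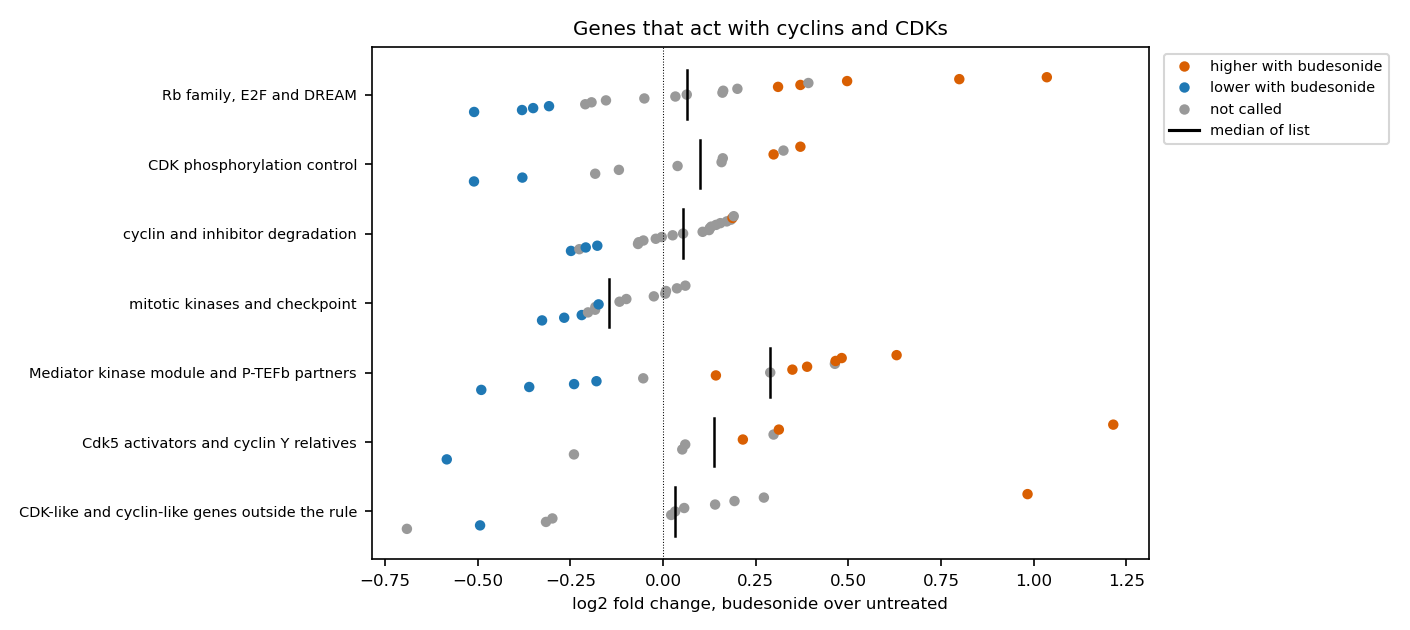
Log2 fold change, budesonide over untreated, of each tested gene in 7 lists of cyclin and CDK partners. Each point is a gene, colour marks the call in edgeR, and the black line is the list's median. Medians run from -0.15 for mitotic genes to 0.29 for the Mediator and P-TEFb partners.

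Some counts can hold reads of neighbouring genes. In GENCODE M21, 20 members share exon bases with another gene, 18 of them with one on the other strand, and the strand setting of the authors' counting is not given in the sources used here. Among the changed members, Ccnd1 overlaps LTO1 (77, 67 and 69 reads with budesonide; 48, 60 and 59 without), and Ccne2 overlaps Ints8 (462, 473 and 329 reads; 394, 427 and 376). Cdk17 overlaps Elk3 (64, 56 and 36 reads with budesonide; 26, 19 and 39 without), and Ccnd2, Ccnl1 and Cdk18 overlap genes with at most 19 reads in a library. The part of shared reads in these changes was not tested. The pseudogene rows Ccnb1-ps, Ccnb2-ps and Ccnd3-ps held 24, 20 and 22 reads over all 6 libraries.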

How the data were processed

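Stranded mRNA kits were used on RNA of 3 budesonide and 3 untreated samples, per the labels' protocols. Reads were handled with bcl2fastq, cutadapt 2.5, STAR 2.7.5c, featureCounts 2.0 and DESeq2 on the mouse build GRCm39, per the submitters' processing notes, which give no roles or parameters. Neither the annotation nor the strand setting is stated. The authors deposited raw read counts per gene symbol, which were used for all tests. A normalized signal for 33560 genes was also deposited by the authors. It equalled each count over a library's factor (largest difference 0.0645 reads), had no gene under a total of 11 reads, and served that check alone.

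Group and replicate were read from the titles. Counts were filtered (edgeR's filterByExpr, minimum count 10, minimum total 15), scaled by TMM and tested with edgeR 4.0.16 (quasi-likelihood, robust, R 4.3.3, limma 3.58.1) over all 17155 genes that passed, with Benjamini-Hochberg adjustment at 0.05. TMM factors were 0.960 to 0.989 for budesonide and 1.02 to 1.04 for untreated libraries. The fit was tested on simulated data. Levels per kilobase used the longest protein-coding GENCODE M21 transcript. Within groups the libraries differed by more than sampling noise (chi-square per gene 1.42 to 3.13), so none was counted as a repeat. Members and lists were chosen with earlier results of these data known. Named by rule were every member, with values per library for the G1, S and M phase cyclins, their kinases, the inhibitors and other members changed at least 1.5-fold, and from each partner list up to 2 higher and 2 lower genes with the smallest adjusted p, plus Mki67; 1 gene that this rule names is not reported here. Ccnj, below that fold, was given per library after its values were seen. Alternatives were DESeq2 1.42.0, RLE, upper quartile or no scaling, no filter, a replicate block, a threshold of 0.01, each library left out and, for shares of a family, no length scaling.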

Additional observations from a re-analysis of the deposited data

How the results depend on the processing

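Of 15 changed members, 12 kept their call and direction in all 13 alternatives, Ccnl1, Ccnl2 and Ccnt2 lost it in at least 1, and 8 of the 29 others gained one. Higher members numbered 4 rather than 7 with upper quartile scaling, no scaling factors, no filter on low counts or an adjusted p under 0.01, and lower members 14 rather than 8 with no scaling factors. DESeq2 called 1321 of 14609 tested genes lower, against 2316 of 17155 in the main fit. With no scaling factors 38.6% of all changed genes were higher, against 52.9%. Leaving out each library in turn gave 14 to 16 changed members and 4044 to 4614 changed genes. Deviations of same-numbered samples from their group means correlated at 0.0456, 0.0676 and -0.0255. For samples of different number the correlations ran from -0.0833 to 0.0403. With 3 libraries a group these values cannot decide whether the numbers pair samples. A fit with the replicate block changed 15 members and 4986 genes. Without length scaling the share difference was -4.35 rather than -2.74 percentage points for Cdk8 and -8.02 rather than -5.79 for Cdk14, because transcripts of unequal length then weigh differently. At 3 reads a library holds 0.401 to 0.529 CPM by total counts with no TMM factor. Cdkn2c, Cdkn2d, Cdkn3 and Cdkn2b, with few reads, are measured with the least precision among the inhibitors.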
